A study of Sus scrofa with 8 samples.

Results

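Among the named, multi-exon, protein-coding genes of the annotation behind this study, 311 of 16127 (1.93%) ended at their coding sequence, with no 3' untranslated region (3' UTR) behind it. They were chosen by 1 value read from the file, the number of exon bases after the last coding or stop codon base in the coding transcript that reaches farthest 3', which was 0 in all 311. Genes named only by a LOC number, mitochondrial genes and genes with 1 exon were left out, and the 15816 other genes of the same kind, each with at least 1 such base, were the comparison genes. The 311 models stood for 310 GeneIDs, because OBP (an odorant binding protein of the lipocalin family) was placed once on chromosome X and again, as OBP_1, on chromosome Y. Submucosal glands (SMG) had been dissected from the trachea of newborn pigs, 4 wild-type and 4 CFTR-/-, and 1 droplet-based 3' single-cell library was made per animal. Loss of CFTR, an epithelial channel for chloride and bicarbonate, causes cystic fibrosis, and CFTR-/- pigs lack it in every cell. The file analysed here is the gene annotation that the authors edited and then used to assign reads in all 8 libraries, so it holds no value per animal, and wild-type and CFTR-/- SMG cannot be compared in it. All positions are on the pig assembly Sscrofa11.1, counted from 1.

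In a messenger RNA the 3' UTR lies between the stop codon and the poly(A) tail, and the sequence AAUAAA or AUUAAA shortly before its end directs cleavage and tail addition. In 3' single-cell sequencing the complementary DNA is primed on the tail, so most reads come from the last stretch of the transcript. A read is assigned to a gene only where it overlaps an annotated exon, which makes the annotated 3' end part of the measurement.

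The following windows show how such models end. Each covers 12 coding bases, the stop codon in capitals and the 15 genome bases behind the last base of the model, for the first gene in symbol order of the transporter list, the host defense list and each family with at least 3 members.
CLCN5 (chrX:43809458-43809487, + strand): attctcttcaacTAGaatcacagggttgtt
BCL3 (chr6:51264909-51264938, + strand): ccaggaggcagcTGAgtgggatgggggggg
SLC22A11 (chr2:7590376-7590405, - strand): ctggagaaccagTGAgtgacccacagccac
ANO9 (chr2:232746-232775, - strand): gagaagatgtggTGAggcggggcggggctt
ADGRG4 (chrX:111533986-111534015, + strand): gaaacaatgctgTAGcctaaagggataact
CCL21 (chr10:32094468-32094497, + strand): gccatagcccagTGAccagcctggagccca
ZFP57 (chr7:22607405-22607434, - strand): ttggaagggaaaTAGatgatctttctgctg
BARHL1 (chr1:272380209-272380238, + strand): gcgcagcctcggTGAagcgcccgcccggcg
BMP6 (chr7:5208854-5208883, + strand): tgtggatgccacTAActcggaacaggctgc
ADAM3A (chr17:9088849-9088878, - strand): gtcttgcagtaaaaggtgaagtaaaggaat
In the first 9 windows the model stopped on the last base of a stop codon and the genome read on without a break. In ADAM3A no letters are in capitals, because the model broke off inside the coding sequence. Among the 298 members that did end on a stop codon it was TGA in 138, TAA in 82 and TAG in 78, or 46.3%, 27.5% and 26.2%, against 51.4%, 25.8% and 22.8% in the comparison genes.

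The genes without a 3' UTR included 4 of the 393 measured genes of the study's electrolyte transporter list (1.02%), below the 1.93% of all named multi-exon coding genes. CLCN5, a chloride/proton exchanger of endosomes, had 11 exons and a 5' UTR of 49 bases. KCNK18 encodes a two-pore potassium channel and was a predicted model of 7 exons with a 5' UTR of 80 bases. SLC26A5, the motor protein prestin of cochlear hair cells, had 19 exons and no untranslated base at either end. TRPC7, a calcium-permeable cation channel, had 11 exons, none of them untranslated, and its coding sequence did not begin with ATG. No gene of the in situ hybridization panel (0 of 24) or of the qPCR panel (0 of 16) was a member. The same was true of the markers BPIFA1, DMBT1, OBP2B, MUC5B, MUC19, ACTA2 and KRT14 of serous, mucous and myoepithelial gland cells (0 of 7). At a share of 1.93%, panels of 24, 16 and 7 genes can easily hold no member, so these counts do not set them apart.

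Of the study's host defense list, 16 of 400 measured genes were members (4%, beside 1.93% of all named multi-exon coding genes), a share that was not tested. RELA, the transactivating subunit of NF-kB, and BCL3, a nuclear partner of NF-kB dimers, both ended on their stop codon and had no 5' UTR. Secreted cytokines in the group were IL21, a T-cell factor, IL23A, the specific subunit of interleukin 23, and IL28B, a type III interferon. Their coding sequences of 450, 582 and 588 bases were the whole of each model. The list also held TNFSF8 (the ligand of CD30), IL17RC (a receptor subunit for interleukin 17), BST2 (tetherin, which holds budding virus at the cell surface), CD160 (a receptor of NK and T cells), MBL2 (a collectin that recognizes microbial sugars) and MMP12 (macrophage elastase). CST11 (a cystatin), SPACA3 and SPACA5 (lysozyme-like proteins of sperm), RAB1A (a GTPase of early secretory traffic) and NOP53 (a nucleolar protein) completed it. Of the 16 genes, 12 were curated transcripts without a 5' UTR, and only CD160, CST11 and NOP53 had untranslated bases at the 5' end, with 813, 77 and 37. Other lymphocyte genes among the members, picked out after their values were seen, were CD2, CD27, CD40LG, CD70, CD79A, FASLG and LAG3, which were likewise bare coding sequences of 573 to 1524 bases.

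Families chosen by symbol ranged widely around the 1.93% of all named multi-exon coding genes, and no chance test was made for them. Each was set by symbol prefix, so its share is that of the matching symbols and not of the whole class. The share was 6.53% of G protein-coupled receptors (13 of 199), among them ADGRG4, ADRA1D (an alpha-1 adrenoceptor), the chemokine receptor CCR10, GPR142, GPR33 and GPR50. It was 6.48% of growth factors and TGF-beta proteins (7 of 108), with BMP6, FGF3, GDF5, GDF9, IGFBP4 and INHBB. For the prefixes taken as testis and sperm genes it was 6.14% (18 of 293), with ADAM3A, ADAM5, ADAMTS10, CCDC178, CCDC36 and CCDC73 first in symbol order. Of these ADAMTS10 encodes a matrix protease and met the family only through its prefix, and the CCDC symbols name a coiled-coil domain. The member PDHA2, a testis isoform, was not matched. Cytokines, chemokines and their receptors gave 5.26% (9 of 171), from CCL21 and CCL3L1 to IL17RE. Homeobox, SOX, FOX and other developmental factors gave 4.48% (9 of 201), with BARHL1, DLX5, FOXL2, HOXB1, NKX1-1 and NKX2-6. The prefixes missed some members, such as the homeobox genes EVX1 and SHOX here and the bradykinin receptor BDKRB1 among the G protein-coupled receptors.

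At the other end of the range stood zinc finger genes with 1.21% (4 of 330: ZFP57, ZNF215, ZNF608 and ZSCAN4) and ribosomal protein genes with 0.595% (1 of 168, MRPS18B of the mitochondrial ribosome). Solute carriers, with 7 of 363, were at 1.93% (SLC22A11, SLC22A6, SLC25A24, SLC25A25, SLC26A5 and SLC34A2 among them). Potassium, sodium, calcium and chloride channels were at 2.53% (4 of 158: ANO9, CACNA1B, CLCN5 and KCNK18), and proteases and their inhibitors at 2.24% (5 of 223: ADAM3A, ADAM5, ADAMTS10, MMP12 and USP50). No member was found among 88 defense peptides and lectins, 74 claudins, connexins and cadherins, 65 ligand-gated receptor subunits, 41 keratin genes or 38 cytochromes P450. These sets were also made by symbol prefix, and the member MBL2, a collectin, was not among the 88.

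**Figure D1:**
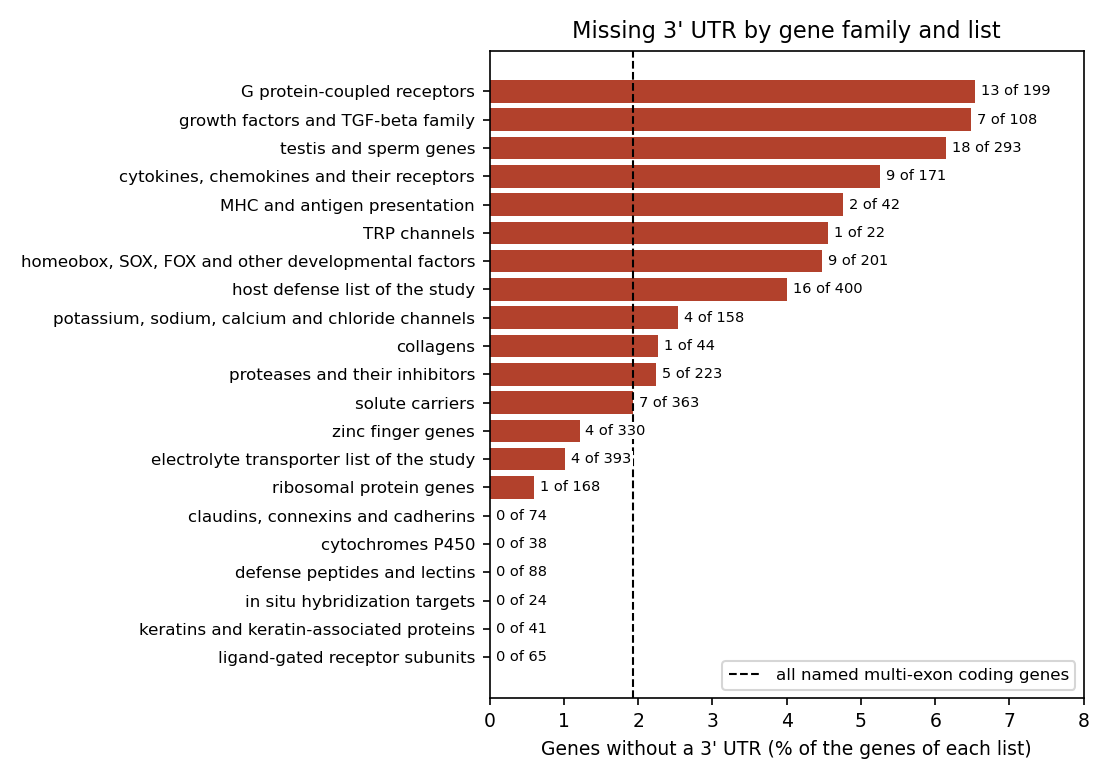
Share of genes without a 3' UTR (x axis, %) in each gene family or list with at least 20 named multi-exon coding genes (y axis), with the counts beside each bar; the dashed line is the share over all such genes, 1.93%. G protein-coupled receptors (6.53%), growth factors (6.48%) and testis and sperm genes (6.14%) have the longest bars, solute carriers lie at the line, and zinc finger genes (1.21%) and the electrolyte transporter list (1.02%) lie below it. Families were set by symbol prefix and do not hold every gene of the class named.

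Some members outside these lists were picked out after their values were seen, and no share or test goes with them. SHH, the hedgehog ligand that patterns limbs and neural tube, DKK1, a secreted Wnt antagonist, and RSPO2 and RSPO3, which enhance Wnt signaling, were all curated models with no untranslated base at either end. The same held for MSTN (myostatin, which restrains muscle growth) and for the muscle transcription factors MYOD1 and MYOG. It held too for NFKBIA, the inhibitor that keeps NF-kB in the cytoplasm, and for IRAK4, a kinase of interleukin 1 and Toll-like receptor signaling.

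The coding sequences of the members ran from 264 to 15357 bases, with a median of 1092 (quartiles 724 and 1677), against a median of 1374 (858 and 2211) in the comparison genes. In curated models alone the order turned, with 1071 in members and 978 in comparison genes. The longest belonged to MUC6, a gel-forming mucin of stomach and glands, whose predicted model on chromosome 2 (630075 to 657967, - strand) held 48 exons and 15357 coding bases. HRNR (hornerin of the skin barrier, 8577), CACNA1B (the N-type calcium channel, 6987), SHANK1 (a synaptic scaffold, 6495) and RP1L1 (a photoreceptor protein, 6414) followed. NCKAP5, VWA8, NUP210L, SPEF2 and LY75 had 5814, 5712, 5706, 5436 and 5169 coding bases. The shortest were HEPN1 (264), SUMO4 (281), C14H10orf53 (282), the chemokine CCL3L1 (282) and PROK1 (318), a secreted ligand of prokineticin receptors. Members spanned a median of 12615 bases of the genome against 26812. They had a median of 6 exons against 9, or 5 against 9 with exons parted by only 1 or 2 bases joined. Curated models alone again gave the other order for the span, 15179 against 13276, and 6 exons against 7; predicted models gave 9223.5 against 29625, and 5 against 9. The coding part of the last coding exon had a median of 179 bases against 150, and the GC content of the coding sequence was 54.9% against 55.1%.

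Most of these genes lacked the other end as well. A 5' UTR, taken from the coding transcript that starts farthest 5', was missing in 218 of 311 members (70.1%, with an exact 95% interval after Clopper and Pearson of 64.7 to 75.1), whereas 490 of 15816 comparison genes lacked it (3.1%). Over all named multi-exon coding genes the share was 4.39%. The difference of 67 percentage points (Newcombe 95% interval 61.7 to 71.8) passed the threshold (two-sided Fisher's exact test, Benjamini-Hochberg adjusted over 11 structural tests, adjusted p = 1.97e-231). A start codon, a stop codon and no untranslated base at either end were found in 196 members (63%). Fisher's tests here compare gene models, which are not independent replicates, and their intervals cover counting error only. A gene with more coding transcripts also has more chances to show a 5' UTR. Only 1 coding transcript was present in 97.1% of members against 40.4% of comparison genes. The difference in the 5' UTR was not tested among such genes alone.

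Members were also more often curated transcripts, entries that NCBI builds from a deposited sequence (accession NM_), rather than models predicted by its pipeline (XM_). The share was 167 of 311 (53.7%) against 1965 of 15816 (12.4%), and 13.2% of all named multi-exon coding genes. The difference was 41.3 percentage points (35.7 to 46.8; Fisher's exact test, adjusted p = 9.81e-66). Within the curated models, 147 of 167 members (88%) had no 5' UTR, against 126 of 1965 (6.41%). Within the predicted models it was 71 of 144 (49.3%) against 364 of 13851 (2.63%), so the difference was present in both classes (81.6 and 46.7 percentage points). Among the predicted members with a 5' UTR, BARHL1 (a homeobox factor) had 476 bases, NCKAP5 805 and CCDC73 1081, and among the curated ones INHBB (a subunit of inhibin and activin B) had 734. In these models only the 3' end was bare.

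**Figure D2:**
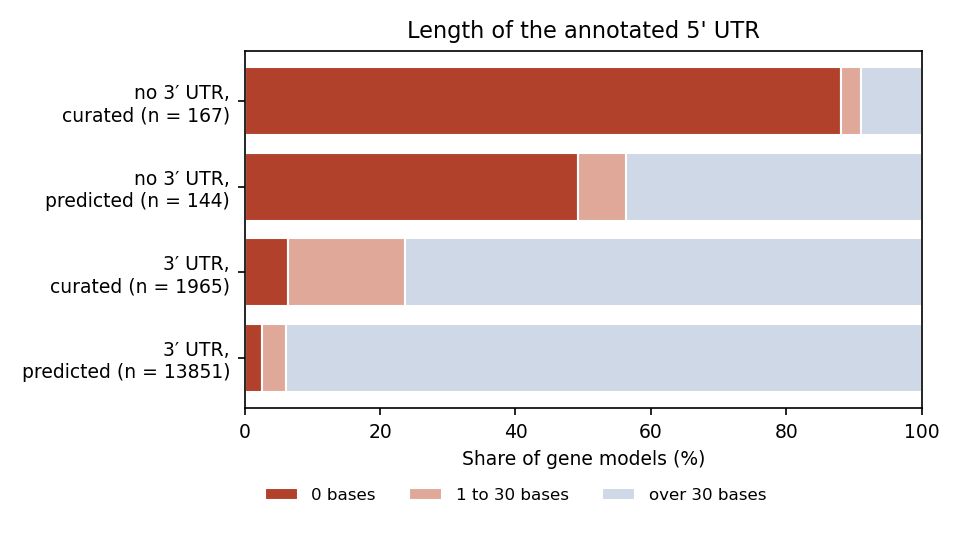
Share of gene models (x axis, %) with a 5' UTR of 0, 1 to 30 or over 30 bases, for curated and predicted models with and without a 3' UTR (y axis, n = number of genes). The part with 0 bases takes up 88% of curated and 49.3% of predicted models without a 3' UTR, against 6.41% and 2.63% of those with one.

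Alternative transcripts were rare: 302 of 311 members (97.1%) had a single coding transcript, against 6392 of 15816 comparison genes (40.4%) and 41.5% of all named multi-exon coding genes. The difference was 56.7 percentage points (54.1 to 58.3; Fisher's exact test, adjusted p = 2.91e-102). In curated models alone it was 23.7 percentage points, 97.6% against 73.9%. The rule reads the coding transcript that reaches farthest 3', and a further transcript with a 3' UTR can take a gene out of the members. The difference therefore partly follows from the rule. In 308 members no coding transcript had a 3' UTR. The 3 exceptions, named after their values were seen, were FAM227B, CRHBP (a binding protein of corticotropin releasing hormone) and ATG9A (an autophagy scramblase), where a coding transcript that ends earlier carried 4310, 433 and 1073 untranslated bases. A noncoding transcript of the same gene reached farther 3' than the coding one in 4 members (1.29%), against 1.89% of the comparison genes and 1.88% overall. The difference was -0.604 percentage points (-1.42 to 1.38; Fisher's exact test, adjusted p = 0.737). These 4 were CDO1 (cysteine dioxygenase), CD81 (a tetraspanin), PLEKHG5 and ACTR3 (a subunit of the Arp2/3 complex), by 708, 527, 5992 and 5416 bases. The coding transcript of a comparison gene ends behind its 3' UTR, so this reach was not measured from like points in the 2 groups.

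Some members were not whole coding sequences. No stop codon stood at the end of 13 members (4.18%), against 7 of 15816 comparison genes (0.0443%) and 0.124% of all named multi-exon coding genes. A coding sequence that breaks off before its stop codon leaves no room for a 3' UTR, so this difference partly follows from the rule. NOP53 has a stop codon in the genome and is counted only because its stop codon entry was stretched (described further on), which leaves 12. The 13 were ABO (a glycosyltransferase of the blood group system), ADAM3A, AKAP10, CHUK (IKK-alpha, an activating kinase of NF-kB), MOG, NFATC1, NOP53, OBP_1, PARP4, PDCD1LG2, PNLIP (pancreatic lipase), SNCAIP and TBP (the TATA-binding protein). At the other end, 16 members (5.14%) did not begin with ATG, against 70 comparison genes (0.443%) and 0.533% overall. The difference was 4.7 percentage points (2.75 to 7.75; Fisher's exact test, adjusted p = 1.57e-11). It was 1.16 percentage points in predicted models alone (Fisher's exact test, adjusted p = 0.0952). They included AGO2 (the slicing argonaute), C7 (complement component 7), CPEB1, HTR4 (a serotonin receptor), IL21, RELA, TAF15 and TRPC7. Of the 29 members without a start codon or without a stop codon at the model end, NOP53 included, none lacked both and 27 were marked as partial by the annotation. The exceptions were NOP53 and TEAD3, a transcription factor whose human messenger RNA is known to start translation at a codon other than AUG.

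For some curated transcripts the annotation states how much could be placed on the genome. An incomplete alignment was stated for 25 of 167 curated members (15%) against 166 of 1965 curated comparison genes. This difference of 6.52 percentage points (1.72 to 12.8) was tested after its values were seen (Fisher's exact test, adjusted over 13 such tests, p = 0.0116). ABO was placed for 36% of its length, OBP_1 for 63%, CHUK for 77%, NFATC1 (a calcium-regulated transcription factor of T cells) for 89% and PPARA (a nuclear receptor for fatty acids) for 94%. The other 20 were placed for 96% to 99%.

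**Figure D3:**
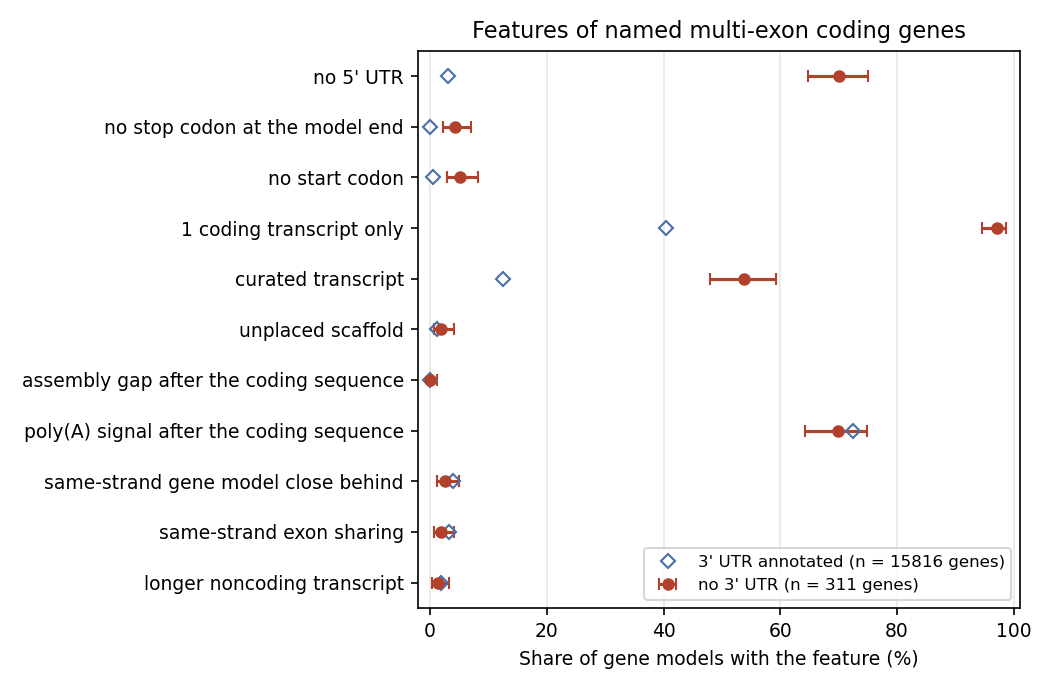
Share of gene models with each of 11 features (x axis, %) for the 311 genes without a 3' UTR (filled points, with exact 95% intervals) and the 15816 genes with one (open diamonds). The points part for the 5' UTR, the single coding transcript and the curated transcript, by 67, 56.7 and 41.3 percentage points, and lie close together for scaffold, gap, poly(A) signal and neighboring genes. The differences in the single coding transcript and the stop codon partly follow from the rule.

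For predicted models the annotation gives the share of the model that RNA-seq reads of NCBI's own set of pig samples covered. These reads also help to place the ends of predicted models, so the values are a description and not an independent test. Of 144 predicted members, 112 had such a value, with a median of 69.5% (quartiles 34.75 and 92.25, range 4 to 100). In the 13850 predicted comparison genes with a value the median was 100% (99 and 100). Full coverage was stated for 4 predicted members (2.78%) against 8809 comparison genes (63.6%), and coverage under 50% for 39 against 30. No coverage at all was stated for 32 members (22.2%) and for 1 comparison gene. The lowest values, singled out after they were seen, were 4% for MROH9, 5% for LRRC74A, 7% for WDR88, 8% for ITIH6 and PANX3 (a pannexin of cartilage and skin), and 10% for EVX1 (a homeobox factor). At least 1 sample that supported every intron was stated for 22 predicted members (15.3%) against 12818 comparison genes (92.5%). In those 22 the median number of such samples was 30.5, against 107.

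**Figure D4:**
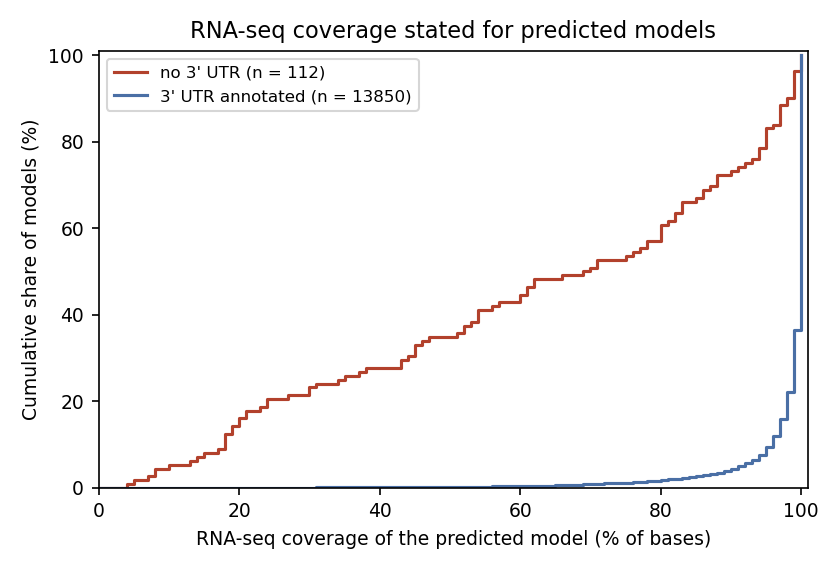
Cumulative share of predicted models (y axis, %) against the RNA-seq coverage stated in the annotation (x axis, % of the model's bases). The 112 models without a 3' UTR are spread from 4% to 100% with a median of 69.5%, while the curve of the 13850 models with a 3' UTR rises only near 100%.

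Exons were often parted by gaps too short for an intron. Gaps of 1 or 2 bases between neighboring exons were counted over the whole transcript, whether or not they lay in coding sequence. They occurred in 103 of 311 members (33.1%, exact 95% interval 27.9 to 38.7) and in 1745 of 15816 comparison genes (11%). The difference, tested after it was seen, was 22.1 percentage points (17.1 to 27.5; Fisher's exact test, adjusted over 13 such tests, p = 3.75e-24). It was 16.6 percentage points in curated models and 25.5 in predicted ones. ADGRG4, an adhesion receptor, held 16 such gaps among 30 exons, and SLA-5, an MHC class I gene, held 12 among 19. In 8 members these gaps were the only breaks between exons: BDKRB1 (a bradykinin receptor), FOXL2 (a forkhead factor of the ovary), PDHA2 (a testis isoform of a pyruvate dehydrogenase subunit), SOX14, SUMO4, TAAR3, TAAR5 (trace amine receptors) and TCEAL5. These genes met the rule's demand of more than 1 exon only through the gaps, and 303 members were left without them. Among predicted members, 55 of 144 (38.2%) were noted as changed relative to the genome against 1505 of 13851, and 52 of the 55 held a gap of 1 or 2 bases.

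The genome behind the coding sequence was complete. In the 1000 bases after the last coding base, no run of 10 or more undetermined bases occurred in any of the 311 members or the 15816 comparison genes (0% overall), and a count of 0 allows a share of up to 0.965% of members (3 genes in 311; the exact upper 95% limit is 1.18%). Unplaced scaffolds carried 6 members (1.93%) against 1.15%, and 1.17% overall. The difference was 0.779 percentage points (-0.279 to 3; Fisher's exact test, adjusted p = 0.333). All 6 were predicted models, and among predicted models alone 4.17% of members against 1.21% of comparison genes lay on scaffolds (Fisher's exact test, adjusted p = 0.023). They were CACNA1B, HIGD1C, LCN6 (an epididymal lipocalin), SHOX (a homeobox gene of the sex chromosomes' shared region), STPG3 and TEX22. Members were found on every assembled chromosome, from 0.743% of the named multi-exon genes of chromosome 11 (2 genes) to 3.48% on chromosome X (20 genes), apart from chromosome Y with 1 of 11.

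A poly(A) signal hexamer, AATAAA or ATTAAA on the gene's own strand, followed within 1000 bases in 217 of 311 members (69.8%, exact 95% interval 64.3 to 74.8). It did so in 11463 of 15816 comparison genes (72.5%), and 72.4% of all such windows held one. The difference of -2.7 percentage points (-8.07 to 2.19) did not pass the threshold (Fisher's exact test, adjusted p = 0.373). Among curated models alone it was -11.1 percentage points, 70.7% of members against 81.8% of comparison genes (Fisher's exact test, adjusted p = 0.00188). Searched on the opposite strand of the same windows, the hexamers occurred in 183 members (58.8%) and in 66.1% of comparison genes, a difference of -7.28 percentage points (Fisher's exact test, adjusted p = 0.0169). Within the members, 80 windows held a hexamer on the gene's strand only and 46 on the opposite strand only (exact McNemar test, two-sided, unadjusted p = 0.00313, made after the counts were seen). In the 167 curated members alone this test gave p = 0.0959 (exact McNemar, unadjusted), with 43 and 28 windows. In the 144 predicted members alone it gave p = 0.0145 (exact McNemar, unadjusted), with 37 and 18 windows. The comparison genes also held more windows with the hexamer on the gene's strand only (3275) than on the opposite strand only (2270), and the 2 groups were not tested against each other on this count.

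The first hexamer came a median of 273 bases (quartiles 130 and 585) behind the coding end in the 217 members that had one, against 313 (145 and 559.5) in the comparison genes. The order differed by class, with 337 against 249 in curated and 243 against 324 in predicted models. It lay within 100 bases in 44 members (14.1%) against 12.2%. The nearest ones are shown with 12 bases on each side and the hexamer in capitals; the stop codon can be read directly before it in NANS and RSPO2.
NANS (chr1:239912716-239912745, + strand): atcaagtcttaaAATAAAatgccattctcc
RSPO2 (chr4:29577879-29577908, + strand): gctaatcagtaaAATAAAagacacagaggg
ZNF215 (chr9:2578144-2578173, - strand): tcctgtgaatatAATAAAtgaaatgtttgt
SH2D1A (chrX:101847259-101847288, + strand): accatgaagaaaAATAAAacacgttgtact
In NANS, which makes sialic acid, and in RSPO2 the hexamer began at base 1 behind the coding end. It began at base 5 in ZNF215 and at base 6 in SH2D1A, an adaptor protein of T and NK cells. RNF151, ADAM5, DHDH, NNMT and CXHXorf66 had theirs at bases 8, 9, 12, 16 and 25. A match of 6 letters is not evidence of cleavage at that place.

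**Figure D5:**
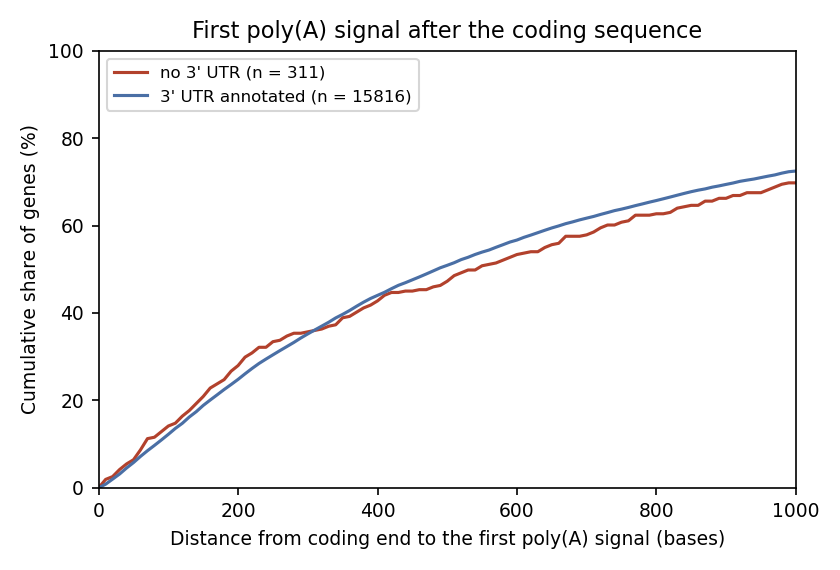
Cumulative share of genes (y axis, %) whose first AATAAA or ATTAAA lies within a given distance behind the coding end (x axis, bases, up to 1000). The curves of the 311 genes without a 3' UTR and the 15816 with one run close together and end at 69.8% and 72.5%.

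Few members lay close to another gene on the same strand. Distances began at the end of the model, which is the coding end in members and lies behind the 3' UTR in comparison genes. Most members also had no 3' UTR base that could be shared, so the differences below depend partly on the rule. A gene model on the same strand began within 1000 bases of the 3' end of 8 members (2.57%), against 3.98% of the comparison genes and 3.95% of all. The difference was -1.4 percentage points (-2.71 to 1.03; Fisher's exact test, adjusted p = 0.348). ATG9A ended 4 bases before ABCB6, and IL17RC ended 44 bases before CRELD1. ADAM5, MRPS18B, PARP4, CD27, CD79A and CDK9 ended 184, 419, 489, 560, 673 and 804 bases before the next model, and RAB1B and CDO1 1013 and 1061 bases before it. Exon bases were shared with another gene of the same strand in 6 members (1.93%) against 3.24%, and 3.21% overall. The difference was -1.31 percentage points (-2.39 to 0.923; Fisher's exact test, adjusted p = 0.348). PLEKHG5 shared 2256 bases, ZSCAN4 1033, PRRG2 507, NUP62 (a nuclear pore protein) 121, C14H5orf52 102 and HRNR 5.

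The authors' editing had already shortened the list. In the RefSeq annotation that they started from, 376 genes met the same rule; 311 of them (82.7%) still did so in the edited file and 65 (17.3%) had gained a 3' UTR. No gene joined. All 65 were on the study's list of edits as elongated, with 3' UTRs of 67 to 5608 bases and a median of 1010 (quartiles 344 and 1917). They included FOS (a subunit of AP-1), CASP1 (a caspase of inflammation), CXCR4 (a chemokine receptor), KLF5, IRF3, IFITM3 and SCGB1D1, named after their values were seen. Curated transcripts made up 61 of the 65 (93.8%), and 56 (86.2%) had no 5' UTR.

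NOP53 was the only member on that list. It was listed as elongated, yet the added bases had been entered as stop codon: its stop codon entry ran from 53451705 to 53452022 on chromosome 6, 318 bases in place of 3, and it was the 1 gene of the file whose stop codon entry was over 3 bases. The RefSeq coding sequence ended at 53451707, with the stop codon in capitals and the following bases inside the stretched entry.
NOP53 (chr6:53451693-53451722, + strand): cgggagatccagTGAgtggcgcttcccttc
Read by the rule, NOP53 had no 3' UTR, although its exon did reach past the stop codon.

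Just outside the rule's threshold stood 13 genes with 1 to 3 bases behind the stop codon. BMPR2 (a BMP receptor), GKN2, NPS and TNNC2 had 1 base. CCL4, CTLA4 (an inhibitory receptor of T cells), FABP3, GLP1R, GPRIN2, LINS1 and TNNC1 had 2, and AQP2 (the vasopressin-regulated water channel) and FITM1 had 3. Of the 13, 11 were curated transcripts.

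Other genes without a 3' UTR were alike in part. A 3' UTR was missing in 76 of 408 named genes with 1 exon (18.6%) and in 541 of 2467 multi-exon LOC genes (21.9%). A 5' UTR was missing in 70.1% of members against 82.9% of those single-exon genes, a difference of -12.8 percentage points (-21.4 to -1.7; Fisher's exact test, adjusted over 13 tests made after the values were seen, p = 0.0444). Against the LOC genes, 74.7% of which lacked it, the difference of -4.58 percentage points (-10.9 to 1.57) did not pass the threshold (Fisher's exact test, adjusted p = 0.162). Curated transcripts set the LOC genes apart, with 5 of 541 (0.924%) against 53.7% of members (Fisher's exact test, adjusted p = 4.49e-81). Poly(A) hexamers did not differ beyond the threshold from either group, with intervals of -18.5 to 2.34 percentage points against the single-exon genes and -6.04 to 6.74 against the LOC genes.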

How the data were processed

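The authors took the pig RefSeq models of Annotation Release 106, edited them by hand as a GTF and assigned reads to them with Cell Ranger, for which the submitters' processing notes name version 3.0.2. The deposited file holds start and end positions, counted from 1, and no read counts; neither counts nor cells entered this work, and sequencing depth is unknown.

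Genes were read in Python 3.11.15 (pandas 2.3.3, scipy 1.17.1, pysam 0.24.0) and indexed with samtools 1.23.1; sequences, evidence notes and the unedited models came from RefSeq on the same build. Gene models, not animals, were compared, by Fisher's exact test (two-sided) with Benjamini-Hochberg adjustment (threshold 0.05) over 11 structural tests, checked on simulated gene models and shares. Another 13 Fisher's tests, adjusted among themselves, and exact McNemar tests of the hexamer's strand, not adjusted, were added after values were seen. Windows were 1000 bases and a gap was at least 10 undetermined bases. The members, the 21 families and the lists were chosen with earlier results of these data known; the study's lists were picked by the study itself. Genes named are members of those lists or of families with 3 or more members (up to 6 each, in symbol order), the 10 longest and 5 shortest coding sequences, the 10 nearest hexamers (1 of them not reported here) and next genes, edited members, and genes within 3 bases of the threshold (all 13 are given); others are said to be picked after their values were seen. Alternatives changed the comparison genes, the definition of members, the annotation, the evidence class, the windows and the strand. RSC1A1, HYPK, STEAP1, INHBA and ADH4_1 have no coding entry in the file and were left out.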

Additional observations from a re-analysis of the deposited data

How the results depend on the processing

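Over 12 results, 109 alternative values were computed, of which 99 were classed as unchanged in direction and in side of the threshold. These 99 include the alternatives for the assembly gap, whose main difference of 0 has no direction to keep. They also include the numbers of members, which have neither a direction nor a threshold. The missing 5' UTR, the missing stop codon, the single coding transcript and the curated transcript kept both under all of theirs. For the missing stop codon and the single coding transcript the direction partly follows from the rule. The difference in start codons was 1.16 percentage points in predicted models alone and no longer passed the threshold. That in poly(A) hexamers became -11.1 in curated models and -7.28 on the opposite strand, both past the threshold, and turned to 0.192 with RefSeq models before editing and to 0.0544 in windows of 3000 bases. That in unplaced scaffolds was 2.95 and past the threshold in predicted models, and turned to -0.128 with LOC genes among the comparison genes and to -0.712 in curated models. That in longer noncoding transcripts turned to 0.0661 in curated models and that in exon sharing to 0.636 in predicted models. None of the 6 that turned passed the threshold on either side, and the causes were not tested. Members numbered 308 when every coding transcript had to lack a 3' UTR, 324 with up to 3 bases allowed, 376 before editing, and 303 without genes split by gaps of 1 or 2 bases alone; that last setting, added after the data were seen, changed no other call. No paired analysis was possible because the file holds 1 annotation for all libraries and no column per animal; no library can be left out for the same reason.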
